A study of Mus musculus with 48 samples.

Results

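CD4+ T cells of wild-type (WT) mice were compared between B16F10 tumors and the lymph nodes draining them, by RNA sequencing of 4 libraries of tumor-infiltrating lymphocytes (TILs) and 4 libraries of tumor-draining lymph node (TDLN) cells. These 8 of the 48 libraries of the series were chosen by their labels. The mice were C57BL/6J with no engineered allele named in the labels, B16F10 is a pigmented melanoma line of this strain that was grown under the skin, and the nodes were inguinal. Both tissues were broken up by force and with enzymes, and live CD4+ cells were sorted straight into lysis reagent and amplified with the SMART-Seq v4 kit for small RNA inputs. The labels give no age of the mice, and they do not say whether same-numbered TIL and TDLN libraries came from 1 mouse or how many mice went into a library. P-values therefore measure the spread between these libraries. The Y-linked genes Ddx3y and Eif2s3y, read only as a check of replicate numbers, had at most 0.37 CPM (counts of a gene scaled to a common library size) in replicate 4 of both tissues and at least 10.6 CPM in the other 6 libraries, so replicate 4 stood apart in both groups by RNA of the male chromosome. Of the other Y-linked genes checked, Kdm5d and Uty were also lowest in replicate 4 among TILs, but Kdm5d RNA was not absent there. The fits had no term for sex of the mice. WT CD8+ libraries from the same 2 tissues and CD4+ libraries of Yap-cKO mice, in which Cre driven by the Cd4 promoter deletes loxP-flanked Yap, were used only to show where the WT CD4 tissue difference was or was not the same.

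Naive CD4+ T cells recirculate through lymph nodes, guided by homing receptors such as Ccr7, and need the transcription factors Tcf7 and Lef1 to keep that state. After antigen recognition they differentiate into helper subsets, such as Th1 cells under Tbx21, or carry the regulatory program of Foxp3, and they exchange node-homing receptors for receptors of inflamed tissue. A sorted tumor sample also brings along RNA of melanoma, vessel and myeloid cells, so a gene that is higher in a TIL library need not be a gene of T cells.

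TIL libraries held between 15580299 and 18044602 counts on genes, and TDLN libraries between 15918247 and 21813630. At this depth 3 counts in a library corresponded to 0.138 to 0.193 CPM, and a gene under this level was not separable from absence. Amplified reads carried no molecular identifiers, so this limit covers counting error only. CPM here are scaled by TMM, a factor per library that centers most genes at no change.

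T-cell RNA made up a smaller share of TIL than of TDLN libraries, and melanoma RNA was present in every TIL library. The 15 genes of the T-lineage list (Cd3d, Cd3e, Trac, Lck and others shared by all T cells) summed to 13443, 17640, 13919 and 10527 CPM in TDLN replicates 1 to 4, and to 2120, 5801, 8296 and 6319 CPM in TIL replicates 1 to 4. The groups did not overlap, and the TIL mean was 0.406 of the TDLN mean (exact permutation test over libraries, two-sided, p = 0.0286, the smallest that 4 against 4 libraries allow). The 14 melanoma genes, which make and pack pigment, summed to between 13.8 and 21.5 CPM in TDLNs and to 19630, 14799, 6579 and 9781 CPM in TILs (exact permutation test, two-sided, p = 0.0286). TIL replicate 1 thus held the least T-lineage RNA and the most melanoma RNA of the 4. In bulk libraries fewer T cells and less RNA per T cell cannot be told apart.

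Markers of other cells also differed. Macrophage and monocyte genes summed to 18.4 to 39.5 CPM in TDLNs and 772 to 1928 CPM in TILs, endothelial genes to 166 to 207 and 301 to 774 CPM, fibroblast and pericyte genes to 1.86 to 2.16 and 234 to 963 CPM, and hemoglobin and other erythroid genes to 0.0507 to 2.10 and 236 to 2088 CPM. B cell genes went the other way, from 326 to 681 CPM in TDLNs to 111 to 269 CPM in TILs. The endothelial sum in TDLNs was nearly all Pecam1, which is described below. Coreceptor genes followed the sort in both tissues. Cd4, the coreceptor used for the sort, had 107 CPM or more in every library. The CD8 coreceptor genes Cd8a and Cd8b1 together had at most 50.2 CPM. Natural killer genes summed to 5.5 to 16.3 CPM in TDLNs and to 17.4 to 52 CPM in TILs. Among them Ncr1 had at most 1.43 CPM in any of the 8 libraries.

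**Figure D1:**
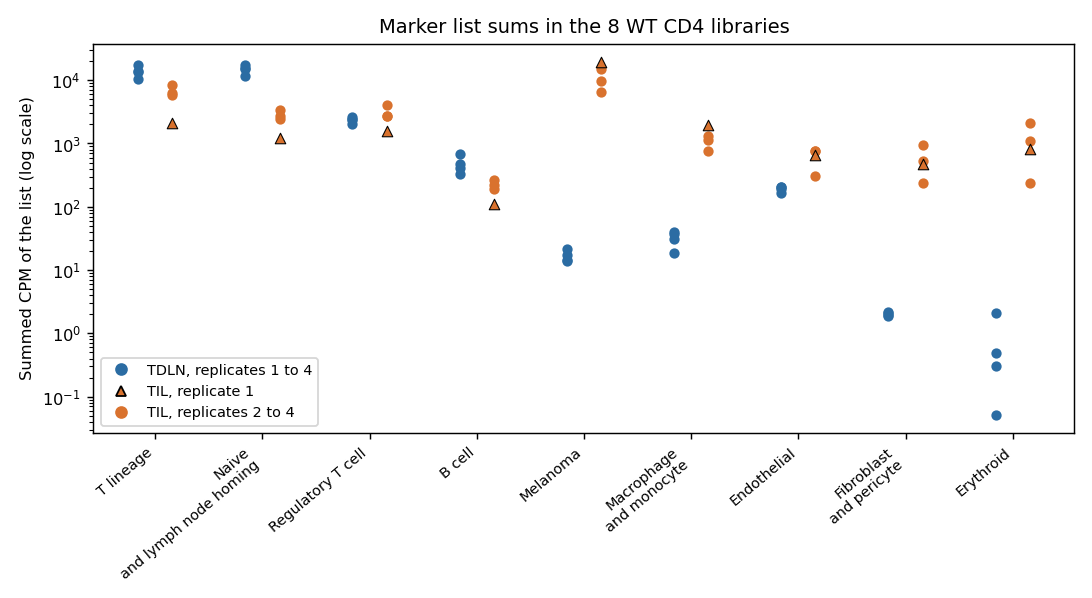
Summed CPM of 9 gene lists in each of the 8 WT CD4 libraries, on a log axis. Blue points are the 4 TDLN libraries, orange points are TIL replicates 2 to 4 and orange triangles are TIL replicate 1, which has the lowest T-lineage sum (2120 CPM) and the highest melanoma sum (19630 CPM).

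Against this background, 3203 of 14009 tested genes (22.9%) were higher and 2024 (14.4%) lower in WT CD4 TILs (edgeR quasi-likelihood F test, calls needed a Benjamini-Hochberg adjusted p below 0.05 and a log2 fold change beyond 1 either way), 37.3% in all. When libraries were instead scaled on their T-lineage sum, so that every gene was read per T-cell RNA, the median log2 fold change of all genes moved from -0.03 to 1.57. All 3203 genes stayed higher, 7954 genes in all (56.8%) were then higher, and 118 (0.842%) were lower, 57.6% in all. These 118 were all among the 2024, and 973 of the 2024 had a positive log2 fold change on that scale, although 0 of them were called higher. The groups did not overlap for 26.3% of tested genes with TILs above and 18.9% with TILs below, 45.2% in all. Per T-lineage count, TILs lay wholly above TDLNs for 53.3% of tested genes and wholly below for 1.18%, and the median ratio of means was 2.93, so a gene's ratio on that scale is read against these values. They take in genes of melanoma and other non-T RNA as well as T-cell genes. Without TIL replicate 1, 2165 genes were higher and 1376 lower by TMM. That fit tested fewer genes (12920), because 4 of 7 libraries then had to pass the count minimum.

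How the counts of a gene moved among the 4 TIL libraries differed between genes. The T-lineage and melanoma sums changed in opposite directions over these libraries, so each gene's range over them was taken once per T-lineage count and once per melanoma count. Of the 3203 higher genes, 2722 (85%) had the narrower range per melanoma count, against 59.2% of all tested genes and 459 (22.7%) of the 2024 lower genes. The remaining 481 higher genes (15%) had the narrower range per T-lineage count. Foxp3 ranged 1.33-fold over the TIL libraries per T-lineage count and 9.70-fold per melanoma count, and Cxcr3 1.22-fold and 11.8-fold. For Yap1 the ranges were 6.95-fold and 1.68-fold, and for the mitotic kinase gene Cdk1 they were 7.39-fold and 1.74-fold. This is a description of 4 libraries without a test, and RNA of vessels, pericytes or red cells need not follow either sum: Hbb-bs (a hemoglobin chain) ranged 10.3-fold and 15.1-fold.

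**Figure D2:**
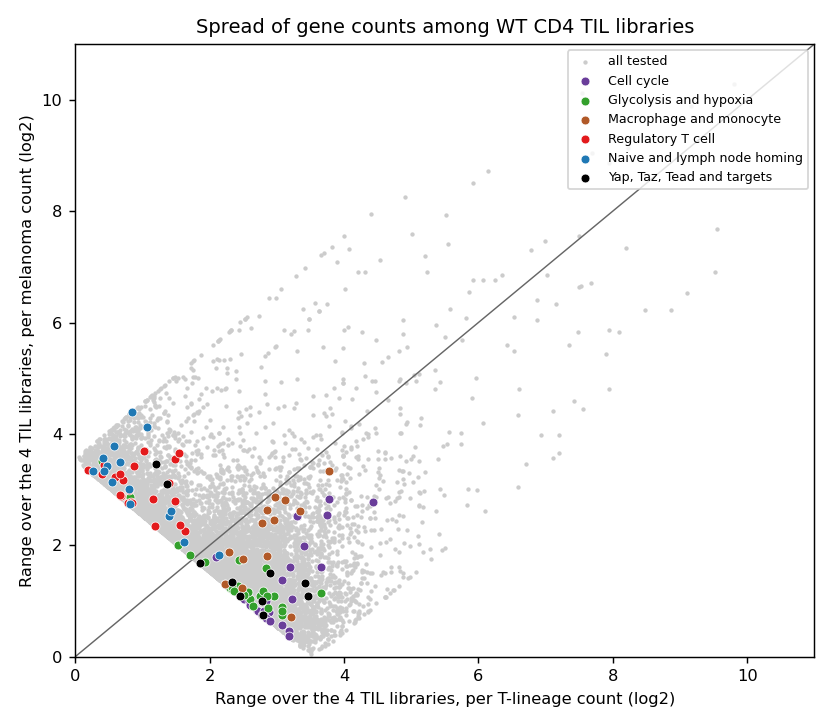
Range of each tested gene's counts over the 4 WT CD4 TIL libraries (log2 of highest over lowest, after adding 0.5 counts), per T-lineage count on the x axis and per melanoma count on the y axis. Grey points are all 14009 genes, colored points are members of 6 lists and the line marks equal ranges. All 22 regulatory T cell genes lie above the line and all 30 cell cycle genes below it.

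All 14 tested melanoma genes were higher in TILs, against 22.9% of all genes. For 8 of them every TDLN library held under 10 counts, so they were tested only because all 4 TIL libraries passed the minimum, and their calls were largely fixed by that filter. Without any 1 TIL library 6 genes were tested and 6 were higher. The 14 had a median log2 fold change of 9.75, or 9.23 when 6 genes at or under 3 counts in every TDLN library were set to their lower bound. Tyr, which encodes tyrosinase (chr7:87424771-87493512, GRCm38), had 0.186, 0.254, 0.30 and 0.308 CPM in TDLN replicates and 486, 369, 152 and 282 CPM in TIL replicates 1 to 4. The groups were far apart, with a log2 fold change of 10.23 (SE 0.486, adjusted p = 1.48e-07). Tyrp1, a second enzyme of pigment synthesis, was at or under 3 counts in every TDLN library and reached 5737, 3347, 1672 and 2931 CPM in TILs, at least 20883-fold higher. Dct, also a pigment enzyme, had 4.58 to 7.86 CPM in TDLNs and 1832 to 5357 CPM in TILs (log2 fold change 9.27, SE 0.487). Pmel, the fibril protein of pigment granules, had 3.55 to 7.59 and 1589 to 4616 CPM (log2 fold change 9.19, SE 0.528). For each of these 4 genes TIL replicate 1 was the highest library, as it was for 12 of the 14, against 59.6% of all genes higher in TILs.

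Pigment genes are known targets of MITF, which binds the M-box, so matches were likely from the choice of the list. Start regions of some are shown as a description of the reference sequence. Letters TCATGTG were searched on both strands in RefSeq promoters (250 bases before to 50 after each start, GRCm38.p6). They occurred in 5 of the 8 melanoma genes matched to a promoter (62.5%) and in 0 of 9 matched T-lineage genes. Of matched regulatory T cell genes 1 of 16 (Tnfrsf9, 6.25%) held them, as did 4.31% of promoters of 27025 genes. Capitals mark the letters in the stretches below, which run 5′ to 3′ on the gene's strand. The promoters are chr7:87493463-87493762 (minus strand) for Tyr, chr4:80833963-80834262 (plus) for Tyrp1, chr14:118052197-118052496 (minus) for Dct and chr7:64153585-64153884 (plus) for Trpm1, a melanocyte channel gene.
Tyr: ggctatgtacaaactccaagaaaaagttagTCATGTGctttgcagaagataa
Tyrp1: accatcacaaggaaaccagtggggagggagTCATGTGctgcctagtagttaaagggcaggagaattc
Dct: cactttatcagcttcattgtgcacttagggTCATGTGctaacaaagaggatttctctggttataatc
Trpm1: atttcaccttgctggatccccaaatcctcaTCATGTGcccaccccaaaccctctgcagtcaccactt
Trpm1 itself had 2.04 to 4.20 CPM in TDLNs and 133 to 328 CPM in TILs. The AP-1 letters TGANTCA, searched in the same way because AP-1 acts downstream of the T-cell receptor, occurred in 1 of 16 matched regulatory T cell genes (Tnfrsf9), in 0 of 14 matched early receptor-response genes and in 8.97% of all promoters. A match is a description of these letters in this window only.

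Genes of vessels, stroma and myeloid cells were higher as well. The endothelial list had 12 of 13 tested members higher (median log2 fold change 7.69, or 6.81 with bounds), the fibroblast and pericyte list 8 of 9 (9.75, or 7.17 with bounds) and the macrophage and monocyte list 13 of 13 (5.53). These counts rest in part on the filter, since 9, 6 and 3 of the members entered the test through TIL libraries alone. Of all tested genes 22.9% were higher. Without any 1 TIL library the counts were 3 of 4 endothelial, 2 or 3 of 3 fibroblast and pericyte, and 10 of 10 macrophage and monocyte genes. Plvap, a protein of capillary fenestrae, was at or under 3 counts in each TDLN library and had 176, 125, 167 and 32.1 CPM in TIL replicates 1 to 4. Pecam1 was the exception, with 162 to 203 CPM in TDLNs and 82.8 to 178 CPM in TILs, which overlapped (log2 fold change -0.51, adjusted p = 0.121). Pericyte Pdgfrb and the collagen gene Col3a1 were at 0 in all 4 TDLN libraries. They reached 16.4 to 66.8 and 30.6 to 217 CPM in TILs, highest in replicate 3 for both. Csf1r, the receptor for macrophage growth factor, had 0.495 to 1.60 CPM in TDLNs and 11.4 to 23.1 CPM in TILs (log2 fold change 4.30, SE 0.432, adjusted p = 1.01e-05).

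Apoe, a lipid carrier made by macrophages and other cells, had 5.31 to 20.1 CPM in TDLNs and 1147, 801, 485 and 438 CPM in TILs. Hba-a1, an alpha globin gene, was at or under 3 counts in every TDLN library and had 134, 46.8, 186 and 322 CPM in TILs, and all 4 tested erythroid genes were higher, of which 3 entered the test through TIL libraries alone. Neutrophil genes were higher in 3 of 4 tested members, 2 of these tested through TIL libraries alone, but stayed low, with S100a8 at 0.776 to 8.29 CPM in TILs. In the dendritic cell list 2 of 10 were higher by TMM, Zbtb46 and Itgax, and 9 of 10 on the T-lineage scale. Of all genes 22.9% and 56.8% were higher. The TMM count was 3 without TIL replicate 1, 4 without TDLN replicate 3 and 5 without TIL replicate 4, while the class II gene H2-Ab1 overlapped (44.5 to 145 against 108 to 239 CPM, adjusted p = 0.0501). Of the B cell list 6 of 8 were lower, among them Cd79a (8.51 to 35.6 against 1.65 to 4.15 CPM), part of the B-cell receptor. Of all genes 14.4% were lower.

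The T-lineage list itself had 0 of 15 genes higher and 11 lower by TMM (median log2 fold change -1.23), against 22.9% and 14.4% of all genes. The count of lower genes depended on single libraries: it was 5 without TDLN replicate 2, 6 without TIL replicate 1 or 2, 7 without TIL replicate 4 and 15 without TIL replicate 3. Scaling on the sum of these same 15 genes centers the list by construction, so the list has no result on that scale. Cd4 (chr6:124864692-124888221) had 861, 907, 917 and 740 CPM in TDLN replicates 1 to 4 and 107, 381, 505 and 447 CPM in TIL replicates 1 to 4. Every TIL library was below every TDLN library (log2 fold change -1.25, SE 0.385, adjusted p = 0.0186). Without TIL replicate 1 or without TIL replicate 2, Cd4 was no longer called. Per 1000 T-lineage counts, Cd4 stood at 64.1, 51.4, 65.9 and 70.3 in TDLNs and at 50.6, 65.7, 60.8 and 70.8 in TILs, which overlapped, with a ratio of means of 0.985. The lineage factor gene Bcl11b fell by TMM (log2 fold change -2.17, adjusted p = 0.00169).

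**Figure D3:**
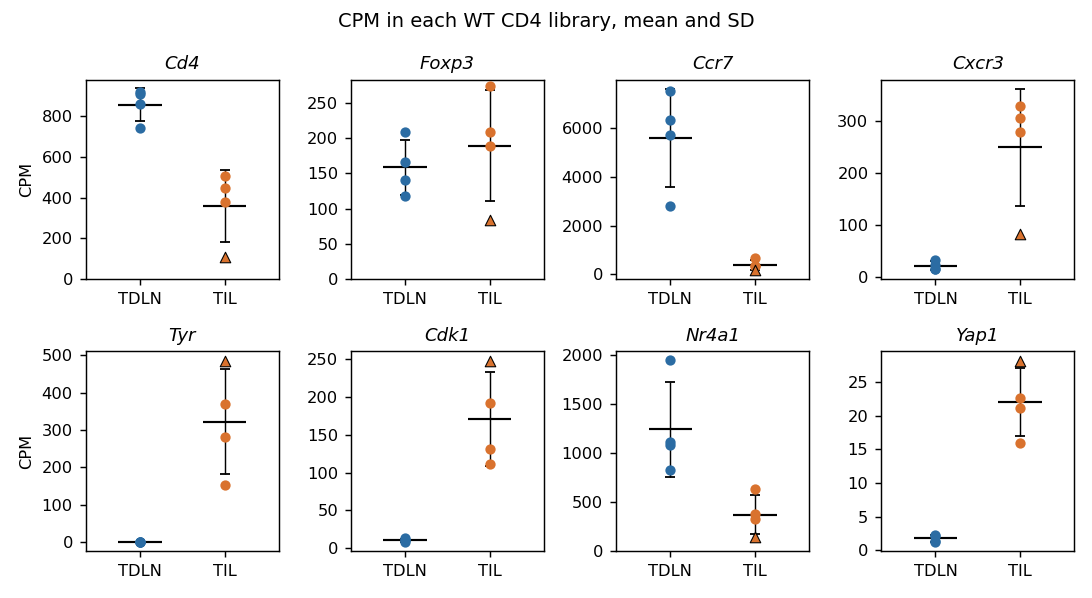
CPM of 8 genes in each WT CD4 library, with the mean (horizontal bar) and SD (error bar) of 4 TDLN and 4 TIL libraries; blue points are TDLNs, orange points TILs and the triangle TIL replicate 1. Foxp3 overlaps between tissues, Cd4, Ccr7 and Nr4a1 lie lower in every TIL library, and TIL replicate 1 is lowest for Cd4 and highest for Tyr, Cdk1 and Yap1.

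Foxp3 (chrX:7573644-7595245), the factor that defines regulatory T cells, was not called by TMM and was called higher per T-cell RNA, where its change was close to that of the median gene. It had 166, 208, 118 and 141 CPM in TDLN replicates and 84.1, 209, 273 and 189 CPM in TIL replicates 1 to 4, with overlapping groups (log2 fold change 0.26, SE 0.325, adjusted p = 0.542). Per 1000 T-lineage counts it was 12.4, 11.8, 8.46 and 13.4 in TDLNs and 39.7, 36.0, 33 and 29.9 in TILs. On this scale every TIL library was above every TDLN library, and the ratio of means was 3.01 (exact permutation test over libraries, two-sided, p = 0.0286, the smallest possible). Against Cd4 counts in place of the T-lineage sum the ratio was 3.10, and from the deposited TPM it was 2.80. T-lineage scaling in the fit across all genes gave a log2 fold change of 1.59 (adjusted p = 0.00302). All tested genes had a median log2 fold change of 1.57 on that scale, and 56.8% of them were called higher. A ratio of means above that of Foxp3 was found for 48.2%, so a higher ratio is not particular to Foxp3. These genes include those of melanoma and stromal RNA, so they do not show how T-cell genes lie on this scale. T-cell genes differed there, with ratios of 0.985 for Cd4, 0.169 for Ccr7 and 27.6 for Cxcr3.

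TIL replicate 1 was the lowest TIL library for 21 of the 22 regulatory T cell genes in CPM, against 34.9% of all tested genes, 9.4% of the higher and 68.7% of the lower ones. Of the 22 genes, 4 were higher and 3 lower by TMM (median log2 fold change 0.32), against 22.9% and 14.4% of all genes. On the T-lineage scale 13 were higher and 1 lower (56.8% and 0.842% of all genes), with a median of 1.66 against 1.57 for all genes. The median of the list on that scale was thus close to that of all tested genes. Klrg1, an inhibitory receptor of effector-type regulatory cells, had 12.4, 12.8, 24.5 and 8.33 CPM in TDLNs and 42.1, 89.9, 151 and 68.3 CPM in TILs (log2 fold change 2.60, SE 0.424, adjusted p = 0.000369). Entpd1, which encodes the ectonucleotidase CD39, went from 4.70 to 11.1 CPM in TDLNs to 18 to 41.0 CPM in TILs (log2 fold change 2.01, SE 0.366). Gpr83, a receptor of regulatory cells, fell on both scales, from 30.6, 62.1, 35.5 and 54.0 CPM to 2.70, 4.19, 6.29 and 5.47 CPM (log2 fold change -3.29 by TMM and -1.90 by T-lineage scaling). Itgae, the CD103 integrin chain, was lower by TMM (63.7 to 100 against 7.75 to 28.4 CPM) and did not pass on the T-lineage scale (log2 fold change -0.69, adjusted p = 0.148).

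Costimulatory receptors of the tumor necrosis factor family that mark activated regulatory cells are described next, with Ikzf2 and Ccr8. All were chosen beside the naming rule after their values were seen. Per 1000 T-lineage counts Tnfrsf9 (4-1BB) had 14.2, 10, 16.3 and 9.08 in TDLNs and 117, 62.2, 71.5 and 52.7 in TILs, a ratio of 6.12. Tnfrsf18 (GITR) had a ratio of 3.99, Tnfrsf4 (OX40) of 3.69, Ikzf2 (Helios) of 4.41 and the chemokine receptor gene Ccr8 of 2.92, in each case without overlap. The regulatory T cell genes Ctla4 and Il2ra had ratios of 1.58 and 1.61 and overlapped. Of all tested genes 53.3% had TILs wholly above TDLNs on this scale, and the median ratio was 2.93. In the fit across all genes the T-lineage log2 fold changes were 2.61 for Tnfrsf9, 2.14 for Ikzf2, 2.00 for Tnfrsf18, 1.88 for Tnfrsf4 and 1.55 for Ccr8, against 1.57 for the median of all tested genes. By TMM only Tnfrsf9 among these 5 passed (log2 fold change 1.15, adjusted p = 0.0116), and it no longer did without TIL replicate 3 or TDLN replicate 4.

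**Figure D4:**
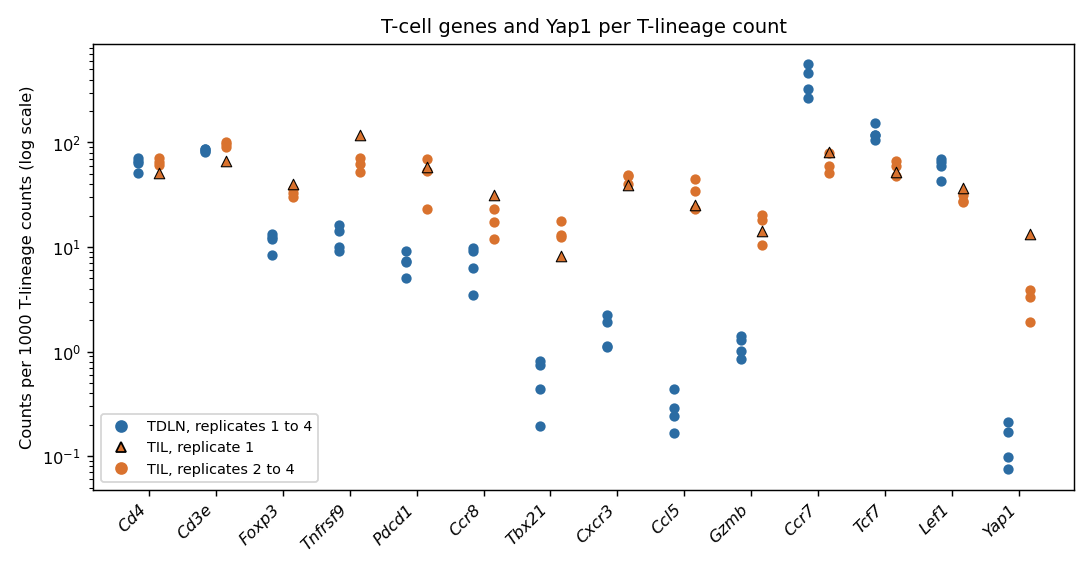
Counts per 1000 T-lineage counts (log axis) of 14 genes in each WT CD4 library; blue points are TDLNs, orange points TIL replicates 2 to 4 and triangles TIL replicate 1. Cd4 overlaps between tissues, Foxp3 is 3.01-fold higher in TILs on average (the median tested gene is 2.93-fold higher), Cd3e is part of the sum, and Yap1 in TIL replicate 1 (13.3) stands above the other TIL libraries (1.92 to 3.91).

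Genes of the naive state and of lymph node homing were lower in TILs on either scale for a part of the list. By TMM 14 of 15 were lower and 0 higher (median log2 fold change -2.30), against 14.4% of all genes lower. On the T-lineage scale 6 of 15 were lower and 0 higher (median -1.07), against 0.842% of all genes lower. Among the 6 were Ccr7, Tcf7, Satb1 and Bach2. Ccr7 (chr11:99144196-99155077), which guides cells into nodes, had 7531, 5738, 6357 and 2799 CPM in TDLNs and 172, 347, 652 and 324 CPM in TILs. The groups were far apart, with log2 fold changes of -3.91 (SE 0.462, adjusted p = 3.31e-05) by TMM and -2.57 (adjusted p = 0.000339) by T-lineage scaling. Nsg2 was at 218 to 302 CPM in TDLNs and 6.85 to 31.9 CPM in TILs and was also lower on both scales (log2 fold changes -3.37 and -2.14).

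Tcf7 and Lef1, described beside the naming rule after their values were seen like Klf2 and Ifng below, stood per 1000 T-lineage counts at 105 to 153 against 47.9 to 66.5 and at 43.0 to 69.6 against 27.2 to 36.7. The groups did not overlap, with ratios of means of 0.459 and 0.52. In the fit across all genes Tcf7 passed on the T-lineage scale (log2 fold change -1.12, adjusted p = 0.017) and Lef1 missed the fold threshold (-0.94, adjusted p = 0.0382). Klf2, which drives homing receptors, gave overlapping values there (38.0 to 45.5 against 28.5 to 51.4, ratio 1.04), and by TMM it did not pass (log2 fold change -1.15, adjusted p = 0.053). B cell genes, another sign of node tissue, moved the same way as this list, and their part in the result was not tested.

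Of 12 tested Th1 genes, 6 were higher, 0 lower and 6 not called by TMM (median log2 fold change 1.68, against 22.9% of all genes higher). Of the 6 higher genes 1, Hlx, was tested through TIL libraries alone. On the T-lineage scale 9 were higher (median 2.91, against 56.8% of all genes higher). Without TIL replicate 4 the TMM count was 4 of 11. Tbx21, the T-bet factor of Th1 cells, had 2.60, 13.1, 6.06 and 8.51 CPM in TDLNs and 17.4, 75.5, 103 and 111 CPM in TILs (log2 fold change 3.34, SE 0.580, adjusted p = 0.000592). Its target Cxcr3 (chrX:101731535-101734269), a receptor for interferon-induced chemokines, had 15.0, 33.6, 15.7 and 23.4 CPM against 83.7, 280, 330 and 306 CPM (log2 fold change 3.51, SE 0.435, adjusted p = 4.76e-05). The 2 tissues did not overlap for either gene, and TIL replicate 1, with the least T-lineage RNA, was the lowest TIL library for both.

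Per 1000 T-lineage counts Tbx21 was 23.5-fold and Cxcr3 27.6-fold higher in TILs. Ifng, the Th1 cytokine, was low but did not overlap, with 2.04 to 3.70 CPM in TDLNs and 3.79, 15.7, 30.4 and 53.2 CPM in TILs (log2 fold change 3.11, SE 0.629, adjusted p = 0.00166). Il18rap, a chain of the IL-18 receptor, had 4.86 to 14.4 CPM against 14.5 to 90.0 CPM (log2 fold change 2.71, adjusted p = 0.00163). Hlx, a Th1 partner of T-bet, had 0.06 to 0.355 CPM against 2.28 to 12.2 CPM (log2 fold change 5.26), and unlike Tbx21 it was not lowest in TIL replicate 1. Since Hlx was tested through TIL libraries alone, its call was largely fixed by the filter.

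Of 10 tested cytotoxic genes 5 were higher (Gzma, Gzmb, Gzmk, Nkg7 and Ccl5), 1 lower (Prf1) and 4 not called by TMM. Of all genes 22.9% were higher and 14.4% lower. On the T-lineage scale 6 were higher and 0 lower, against 56.8% of all genes higher. Prf1, the perforin gene, overlapped (24 to 58.8 CPM in TDLNs against 5.29 to 29.9 CPM in TILs), and it was not called lower without TDLN replicate 2 or TIL replicates 1, 2 or 4. Ccl5, a chemokine of effector T cells, had 2.23, 4.26, 6.06 and 3.02 CPM in TDLNs and 53.5, 134, 368 and 216 CPM in TILs (log2 fold change 5.62, SE 0.584, adjusted p = 1.26e-05), 112-fold higher per T-lineage count. Nkg7, a granule membrane protein, had 9.52 to 32.3 CPM against 99.9 to 585 CPM (41.2-fold per T-lineage count). Gzmb, the granzyme B gene, had 13.5 to 19.7 CPM against 29.9, 60.1, 152 and 129 CPM (13.9-fold per T-lineage count). Natural killer receptor genes moved with these lists, with 4 of 4 tested higher at low levels (Klrb1c 0.48 to 3.27 against 4.93 to 8.15 CPM), while Cd8a and Cd8b1 were lower (Cd8b1 29.2 to 46.7 against 5.95 to 17.8 CPM). The part of natural killer cells in the result was not tested.

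Among chemokine receptors 7 of 15 were higher and 4 lower by TMM, against 22.9% and 14.4% of all genes. Chemokine ligands were higher in 8 of 10 tested (median log2 fold change 3.00), 1 of them tested through TIL libraries alone. Ccl4 had 0.804 to 2.79 CPM against 19.1 to 33.9 CPM (log2 fold change 3.79, SE 0.414), and the neutrophil attractant gene Cxcl2 had 0.557 to 1.80 CPM against 8.02 to 30.2 CPM. Macrophages also make these ligands, and the macrophage sum was higher in the same libraries; its part was not tested.

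The Th2 list had 0 of 5 higher and 1 lower by TMM (22.9% and 14.4% of all genes). On the T-lineage scale 2 were higher and 1 lower (56.8% and 0.842% of all genes). The one lower was Il4ra, a receptor chain of the IL-4 receptor, with 1985, 1094, 1514 and 665 CPM in TDLNs and 57.0, 141, 297 and 136 CPM in TILs (log2 fold change -3.06 by TMM and -1.81 by T-lineage scaling). Gata3, the Th2 factor, overlapped (57.8 to 109 against 30.3 to 106 CPM), with a log2 fold change of -0.08 by TMM that turned to 1.17 by T-lineage scaling (adjusted p = 0.0331). The Th17 list had 0 of 7 called by edgeR's test with TMM or by DESeq2, and 2 of 7 (Rora and Il23r) had an unadjusted p under 0.05. On the T-lineage scale 3 of the 7 were higher, against 56.8% of all genes. Of the follicular helper list 3 of 7 were lower by TMM and 1 of 7 on the T-lineage scale, against 14.4% and 0.842% of all genes. Bcl6, which directs that program, had 104, 46.9, 83.3 and 58.5 CPM against 5.11, 7.40, 21.7 and 9.92 CPM and was lower on both scales (log2 fold changes -2.73 and -1.48), whereas its partner Cxcr5 passed by TMM alone (-1.32, adjusted p = 0.0379, and -0.06 by T-lineage scaling).

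Costimulatory genes were partly lower per library. By TMM 1 of 16 was higher and 6 lower (22.9% and 14.4% of all genes), with a median log2 fold change of -1.02. On the T-lineage scale 5 were higher and 0 lower (56.8% and 0.842% of all genes). The median there was 0.25, against 1.57 for all genes. Cd28, the main costimulatory receptor, had 330 to 648 CPM in TDLNs and 80.3 to 228 CPM in TILs (log2 fold change -1.65, adjusted p = 0.00155), with -0.36 by T-lineage scaling (adjusted p = 0.473). Icos, a costimulatory receptor of activated cells, overlapped on both scales (376 to 712 against 122 to 489 CPM, and 21.3 to 61.7 against 51.1 to 59.0 per 1000 T-lineage counts). Cd44, an adhesion receptor of antigen-experienced cells that tumor and stromal cells also carry, was the 1 higher gene, with 88.7, 95.9, 93.7 and 115 CPM in TDLNs and 265, 233, 207 and 249 CPM in TILs (log2 fold change 1.28, SE 0.199, adjusted p = 0.000268).

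Of the inhibitory receptors and Tox 2 of 14 were higher and 5 lower by TMM (22.9% and 14.4% of all genes), and 6 higher and 0 lower on the T-lineage scale (56.8% and 0.842%). The number higher by TMM was 4 without TIL replicate 1 and 1 without any 1 of TDLN replicates 1, 2 and 3 or TIL replicates 3 and 4. Pdcd1, which encodes PD-1, had 122, 89.9, 99.9 and 77.1 CPM in TDLNs and 123, 311, 581 and 147 CPM in TILs (log2 fold change 1.58, SE 0.430, adjusted p = 0.00981). Its groups barely separated in CPM, and per 1000 T-lineage counts they were 5.09 to 9.06 and 23.3 to 70. Havcr2 (TIM-3) was low, overlapped in CPM (3.45 to 5.24 against 4.29 to 11.7) and sat near the threshold (log2 fold change 1.02, adjusted p = 0.0423), and it lost its call without any 1 of 5 libraries, TDLN replicates 1, 2 or 3 and TIL replicates 3 or 4. Lag3 and Tigit, named after their values were seen, overlapped in CPM and per T-lineage count were 3.59-fold and 3.33-fold higher without overlap. Their T-lineage log2 fold changes of 1.85 and 1.73 were close to the 1.57 of the median gene, and 40.8% and 43.9% of all tested genes had a larger ratio of means. Tox, a factor of lasting antigen stimulation, had 113 to 128 CPM in TDLNs and 20.5 to 65.0 CPM in TILs (log2 fold change -1.48, adjusted p = 0.00169), with -0.17 by T-lineage scaling.

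Genes induced within minutes to hours of T-cell receptor signaling were mostly lower per library. By TMM 10 of 18 were lower and 1 higher (14.4% and 22.9% of all genes), with a median log2 fold change of -1.31. On the T-lineage scale 0 were lower and 5 higher (0.842% and 56.8% of all genes). The median there was 0.04, against 1.57 for all genes. Nr4a1 (chr15:101254269-101274795), a nuclear receptor gene used as a gauge of receptor signaling, had 825, 1947, 1112 and 1077 CPM in TDLNs and 143, 381, 631 and 329 CPM in TILs. Every TIL library was lower (log2 fold change -1.74, SE 0.417, adjusted p = 0.0048), and the value by T-lineage scaling was -0.44 (adjusted p = 0.312). Egr2, a factor of the same response, had 35.7 to 76.0 and 7.93 to 15.1 CPM (log2 fold change -2.28, and -0.82 with adjusted p = 0.145 by T-lineage scaling). The 1 higher gene, the stress-induced factor gene Atf3, had 9.56 to 14.4 CPM against 70.1, 32.7, 62.7 and 35.0 CPM.

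Tissue residency genes were divided, with 5 of 12 higher and 3 lower by TMM (22.9% and 14.4% of all genes) and 8 higher and 0 lower on the T-lineage scale (56.8% and 0.842%). Itga1, the CD49a chain that binds collagen, had 0.433, 1.01, 0.42 and 0.555 CPM in TDLNs and 21.4, 11.6, 18.8 and 31.9 CPM in TILs (log2 fold change 5.08, SE 0.456, adjusted p = 4.17e-06). Cxcr6, a receptor that holds T cells in tissue, had 20.3 to 55.8 against 73.6, 192, 231 and 322 CPM (log2 fold change 2.55, SE 0.430). Bhlhe40, a factor of tissue T cells, had 114 to 154 against 394, 454, 601 and 477 CPM (log2 fold change 1.82, SE 0.227). Cd69, the surface marker most used for residency, overlapped (94.8 to 343 against 19.8 to 155 CPM, adjusted p = 0.0849).

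Cell cycle genes rose, and over the TIL libraries they ranged less per melanoma count. Of 30 tested, 20 were higher and 0 lower by TMM (median log2 fold change 2.28), against 22.9% and 14.4% of all genes. TIL replicate 1 was highest for 23 of the 30, against 59.6% of genes higher in TILs and 29.9% of all tested genes. In Yap-cKO CD4 cells 21 of 30 were higher (median 2.10), against 12.4% of all genes. The melanoma sum in those TILs was 189 to 2565 CPM, against 6209 to 19241 CPM in WT, with all libraries scaled together. Cdk1 (chr10:69335146-69352938) had 8.60, 11.0, 10.4 and 13.6 CPM in TDLNs and 248, 192, 131 and 112 CPM in TILs (log2 fold change 3.97, SE 0.306, adjusted p = 1.4e-06). Birc5, which acts in chromosome segregation, had 12.6 to 18.9 against 189, 140, 108 and 110 CPM (log2 fold change 3.15). All 30 had the narrower TIL range per melanoma count, against 85% of genes higher in TILs. Birc5 ranged 6.85-fold per T-lineage count and 1.73-fold per melanoma count. Mki67, the proliferation marker, did not pass (log2 fold change 1.61, adjusted p = 0.211), since TDLN replicate 4 had 27.0 CPM while the other 3 had under 1 CPM and TILs had 8.17 to 40.2 CPM. How much of the cell cycle RNA came from dividing T cells was not tested.

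Of 25 glycolysis and hypoxia genes 18 were higher and 1 (Pdk1) lower by TMM, against 22.9% and 14.4% of all genes. The TIL range was narrower per melanoma count for 21 of 25 (84%). This was close to the 85% of all genes higher in TILs. Tpi1, an enzyme of glycolysis, had 77.6, 143, 97.9 and 70.9 CPM in TDLNs and 3587, 2351, 1924 and 1894 CPM in TILs (log2 fold change 4.65, SE 0.358). Hk2, the inducible hexokinase, had 2.38 to 3.33 against 148, 82.4, 68.4 and 88.7 CPM (log2 fold change 5.04), while the common form Hk1 overlapped (187 to 299 against 156 to 237 CPM) with a log2 fold change of -0.08 by TMM and 1.47 by T-lineage scaling. Vegfa, the vessel growth factor, had 9.65 to 14.8 against 102, 67.4, 51.4 and 95.2 CPM (log2 fold change 2.79, SE 0.283).

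Of 16 tested interferon-stimulated genes, 5 were higher and 0 lower by TMM (Ifit3, Mx1, Oas1a, Rsad2 and Rtp4), and 12 higher on the T-lineage scale, against 22.9% and 56.8% of all genes. In TILs 0 of the 16 had the narrower range per melanoma count, against 59.2% of all genes. Ifit3, an antiviral effector, had 1.42, 2.03, 2.34 and 6.11 CPM in TDLNs and 10.9, 25.4, 39.1 and 79.9 CPM in TILs (log2 fold change 3.71, SE 0.626, adjusted p = 0.000481). Oas1a, a sensor of double-stranded RNA, had 7.42 to 10.2 against 25.3 to 40.3 CPM (log2 fold change 1.99, SE 0.255). Isg15, a ubiquitin-like modifier, overlapped (17.3 to 24.1 against 11.3 to 53.5 CPM, adjusted p = 0.215).

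Yap1 (chr9:7931999-8004596), the co-activator whose deletion in T cells the series studies, was low in TDLNs and higher in TILs. It had 2.29, 1.32, 1.38 and 2.22 CPM in TDLN replicates 1 to 4 and 28.2, 22.7, 15.9 and 21.2 CPM in TIL replicates 1 to 4, or 1.80 ± 0.524 and 22 ± 5.08 CPM (SD, n = 4 each). The groups did not overlap (log2 fold change 3.61, SE 0.342, adjusted p = 6.46e-06). Within TILs its order was that of the melanoma sum. Per 1000 melanoma counts it was 1.44, 1.53, 2.42 and 2.16, and per 1000 T-lineage counts 13.3, 3.91, 1.92 and 3.35. In Yap-cKO CD4 TILs, whose melanoma sum was 189 to 2565 CPM when all libraries were scaled together, Yap1 had 1.76 to 6.52 CPM. In WT CD8 TILs, with a melanoma sum of 4236 to 15355 CPM, it had 14.0 to 28.4 CPM. Deletion in T cells and less melanoma RNA in the same Yap-cKO libraries cannot be told apart for this gene.

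The list of Yap1, its partners and targets had 9 of 10 tested genes higher, Yap1 among them, against 22.9% of all genes. The median log2 fold change was 5.37, or 4.48 with 2 genes at their bound. Of the 10 genes, 3 were tested through TIL libraries alone, and without any 1 TIL library 6 of 6 or 7 tested were higher. Wwtr1, which encodes the related co-activator TAZ, was at or under 3 counts in every TDLN library and had 81.5, 52.0, 46.3 and 38.5 CPM in TILs, at least 333-fold higher. Tead2, a DNA-binding partner, had 0.742 to 1.11 against 12.4 to 18.6 CPM (log2 fold change 4.02), and the targets Ccn1 and Ccn2 had 98.5 to 299 and 48.5 to 81.7 CPM in TILs against at most 0.78 and 0.507 CPM in TDLNs. For 8 of the 10 members (80%), Yap1 among them, the TIL range was narrower per melanoma count, against 85% of genes higher in TILs. The source of this RNA was not tested. Of 8 Hippo pathway genes, which hold Yap back, 0 were higher, 2 lower and 6 not called by TMM, against 14.4% of all genes lower. On the T-lineage scale 3 were higher and 0 lower, against 56.8% and 0.842% of all genes. The number higher by TMM was 2 without TDLN replicate 4 and 1 without TIL replicate 3. The 2 lower genes were kinases: Stk4 (MST1) had 540 to 863 CPM in TDLNs and 91.3 to 245 CPM in TILs (log2 fold change -1.98), and Lats2 had 131 to 179 and 19.3 to 64.1 CPM (-1.66). Neither passed by T-lineage scaling (-0.65 and -0.40, adjusted p = 0.168 and 0.37).

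The genes with the smallest p-values among all those tested give the extremes of the comparison. The 10 protein-coding genes higher in TILs were Ptgds, Tinagl1, Adamts1, Serpinh1, Fkbp9, Tyr, Tyrp1, Rhoj, Cd63 and Tpd52l1, of which Tyr and Tyrp1 belong to the melanoma list. Among them Ptgds, Adamts1, Serpinh1, Tyrp1 and Tpd52l1 had at most 3 counts in every TDLN library. These were tested through TIL libraries alone, so their calls were largely fixed by the filter. Ptgds (chr2:25466709-25470046), a prostaglandin D2 synthase, had at most 1 count in any TDLN library and 644, 480, 329 and 332 CPM in TILs, at least 2724-fold higher. Serpinh1, the collagen chaperone, had at most 2 counts in a TDLN library and 419, 867, 651 and 448 CPM in TILs, at least 3638-fold higher. Cd63, a protein of late endosomes and pigment granules, had 0.558 to 1.26 against 1599, 1092, 653 and 613 CPM. Ptgds and Cd63 ranged 7.65-fold and 9.58-fold over TILs per T-lineage count and 1.54-fold and 1.58-fold per melanoma count, while Serpinh1 ranged 2.79-fold and 4.64-fold.

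Genes lower in TILs with the smallest p-values were Atp1b1, Trim13, Pacsin1, Tgfbr3, Ampd1, Il6st, Otud1, Ugcg, Fbxo33 and Card6. Atp1b1 (chr1:164437109-164458355), a subunit of the sodium pump, had 109, 116, 131 and 131 CPM in TDLNs and 6.85, 10.4, 15.2 and 10.8 CPM in TILs (log2 fold change -3.49, SE 0.269, adjusted p = 1.4e-06), with -2.09 by T-lineage scaling (adjusted p = 0.00183). Tgfbr3, a co-receptor for TGF-beta, had 142 to 203 against 5.65, 14.6, 16.3 and 16 CPM and was lower on both scales (-3.78 and -2.50). Il6st, the shared signaling chain of IL-6 family receptors, had 484 to 614 against 41.4 to 93.9 CPM (-2.90 and -1.54). Of the 10, Trim13 and Otud1 did not pass by T-lineage scaling (-1.22 and -0.72).

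Whether the tissue difference was the same in WT CD8+ T cells was tested as an interaction over 16 libraries. Of 15063 genes 22 (0.146%) had a more positive and 40 (0.266%) a more negative tissue effect in CD4 than in CD8 cells, 62 (0.412%) together. Cxcr3 was among the first, since CD8 cells already had 84.6 to 144 CPM in TDLNs and 83.5 to 207 CPM in TILs (interaction 3.24 on the log2 scale, adjusted p = 0.0144). Nkg7 likewise had 696 to 1423 and 549 to 1907 CPM in CD8 cells (interaction 3.84, adjusted p = 0.0267). Havcr2 was more negative, because in CD8 cells it went from 0.0647 to 0.413 CPM to 17.4 to 44.4 CPM (interaction -6.14, adjusted p = 0.000246). On the T-lineage scale 14 genes (0.0929%) passed in all, 8 positive (0.0531%) and 6 negative (0.0398%), and leaving out 1 library gave 30 to 69 genes by TMM, the fewest without CD4 TDLN replicate 3. The count fell by over 1.5 times without CD4 TDLN replicates 2 or 3, CD4 TIL replicates 2 or 4, or CD8 TDLN replicates 1, 2 or 3.

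The same contrast in Yap-cKO CD4 cells called 1684 genes higher (12.4% of 13565) and 823 lower (6.07%). Of the WT calls 1200 higher genes (37.5% of the WT list, 71.3% of the Yap-cKO list) and 627 lower genes (31% and 76.2%) were shared, and 4 were called in opposite directions. Without Yap-cKO TDLN replicate 3 or TIL replicates 2 or 4, the Yap-cKO total of 2507 fell to 1562, 1545 and 1516. Of the 118 genes lower on both scales in WT, 96 (81.4%) were also lower in Yap-cKO, Ccr7 among them (log2 fold change -3.40). Higher WT genes that were not called in Yap-cKO had the narrower TIL range per melanoma count in 90.7% of cases, against 75.4% of shared ones. Tested as an interaction, 174 of 15087 genes (1.15%) had a more positive and 31 (0.205%) a more negative tissue effect in WT than in Yap-cKO cells, 1.36% together, and 161 of the 174 were among the genes higher in WT TILs.

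Among the 31 (0.205% of all genes) were 9 of the 22 genes of the regulatory T cell list: Tnfrsf9, Tnfrsf4, Tnfrsf18, Ccr8, Klrg1, Itgae, Tigit, Ikzf4 and Il10. With 1 library left out the negative calls numbered from 3 to 181. The fewest came without WT TIL replicate 2 or Yap-cKO TIL replicate 4, the most without Yap-cKO TIL replicate 3. Most of the 9 therefore lost their call in some of these fits. Tnfrsf9 had 1014 to 1434 CPM in Yap-cKO TILs and 70.8 to 205 CPM in Yap-cKO TDLNs (interaction -2.31, adjusted p = 0.0327), and Ccr8 had 272 to 468 and 27.4 to 46.9 CPM (interaction -2.97, adjusted p = 0.0129). Foxp3 itself just missed (interaction -2.21, adjusted p = 0.0509). Melanoma and T-lineage sums differed between the genotypes' TILs in the same libraries, at 189 to 2565 CPM and 8130 to 12961 CPM in Yap-cKO, and their part in these results was not tested. By T-lineage scaling the interaction gave 1906 positive (12.6%) and 6 negative genes (0.0398%), 12.7% together, so the split of directions depended on the scale. Leaving out 1 library moved the TMM count from 205 to between 45 (without WT TIL replicate 1) and 900 (without Yap-cKO TIL replicate 3). It moved by over 1.5 times for 14 of the 16 libraries, the exceptions being WT TDLN replicate 4 and Yap-cKO TDLN replicate 1.

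**Figure D5:**
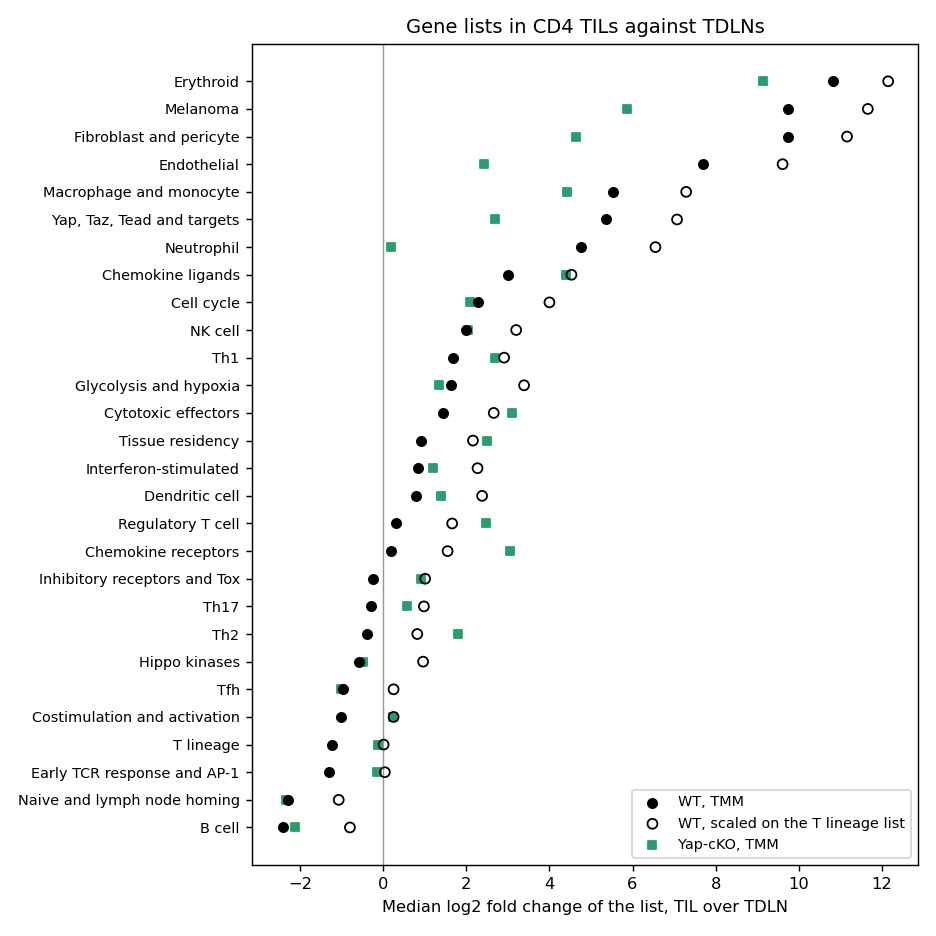
Median log2 fold change, TILs over TDLNs, of each gene list with at least 4 tested members. Filled points are WT CD4 by TMM, open points WT CD4 by T-lineage scaling and green squares Yap-cKO CD4 by TMM; the naive and lymph node homing list lies below 0 in all 3 (-2.30, -1.07 and -2.34) and the T-lineage list moves from -1.23 to 0.01 when scaled on its own sum, which centers it by construction.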

How the data were processed

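The authors trimmed reads with Trimmomatic, checked them with FastQC and quantified transcripts with Salmon 0.9.1 (mm10), per the labels' processing notes and the paper. They deposited for each transcript an unnormalized expected count of reads and a TPM, scaled by effective length and depth within the library. One library made 1 file, and groups and replicate numbers came from the sample titles.

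Transcripts were matched without version to GENCODE M21 (111787 of 112092, leaving at most 0.18% of counts unmatched), and the deposited expected counts were summed over 34932 genes and rounded. Of the 48 libraries 32 were read and 16 were not used here. A gene entered a fit when 4 or more of its libraries held 10 or more counts. Fits used edgeR 4.0.16 (R 4.3.3) with TMM and the quasi-likelihood F test, Benjamini-Hochberg adjustment ran over every tested gene, and a call needed an adjusted p below 0.05 and a log2 fold change beyond 1 either way. The WT CD4 and the Yap-cKO CD4 comparisons each used their own 8 libraries, and interactions used 16. T-lineage scaling replaced TMM by the sum of 15 T-lineage genes. The deposited TPM served as an alternative for the sums and for length offsets. The fits were tested on simulated data. Sums and ratios were compared by exact permutation over libraries. Where every TDLN library had at most 3 counts, a fold was computed against 3 counts in each and given as a lower bound. The 30 gene lists and the choice of these libraries were made with earlier results of these data known. Named genes were Cd4, Foxp3 and Yap1, of each list its first gene and up to 4 with the smallest p, the 10 protein-coding genes with the smallest p in each direction of the tissue contrast and of the interaction with cell type, and up to 5 in each direction of the interaction with genotype. List members named only as called, and genes said to be so, were chosen after their values were seen. Counting did not use strand, so overlapping genes, and near-identical genes such as the globin pairs, are uncertain. Promoters are from RefSeq on GRCm38.p6. Alternatives were DESeq2 1.42.0, no count filter, length offsets, the replicate number as a block, T-lineage scaling and each library left out. The range over TILs per melanoma count, and list counts without each library, were added after the data were seen. In 0 of 12 pairs of libraries of 1 group were the counts as close as sampling noise. A few genes that the naming rule selects are not reported here.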

Additional observations from a re-analysis of the deposited data

Results flagged for a closer look

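Samples that lay far from the other 3 of their group, by the gap to the nearest relative to the range, numbered 22 of 298 groups of 4 tested, and chance flags about 1 in 20. In TDLNs, replicate 4 stood apart for Mki67 (27.0 CPM), Klrb1c (3.27 CPM), Klrk1 (8.08 CPM), Lyz2 (5.31 CPM, the lowest), Stk3 (9.75 CPM) and Lima1 (2.22 CPM). Replicate 2 stood apart for Hk1 (299 CPM) and Slc15a3 (4.36 CPM), and replicate 3 for Plac8 (5.28 CPM). Values of 1 to 4 counts against 0 in the other 3 TDLN libraries were flagged for Tyrp1 (0.123 CPM), Ccl3 (0.247 CPM), Ptgds (0.06 CPM) and, at 0.0617 CPM each, S100a8, Hba-a1, Adamts1 and Tpd52l1. In TILs, replicate 1 stood apart for Ccn1 (299 CPM, the highest), Lats2 (19.3 CPM), Tgfbr3 (5.65 CPM), Ampd1 (1.02 CPM) and Nrn1 (6.67 CPM), each the lowest except Ccn1, and replicate 4 for Haao (2.62 CPM).

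Tissue effects that differed between WT CD4 and CD8 cells by the interaction test are given as CD4 minus CD8 on the log2 scale. More positive in CD4 were Gm49391 (7.37), Ly6c2 (4.78), Plac8 (4.52), Gas7 (4.43), Haao (4.21), Rcn3 (3.88), Nkg7 (3.84), Pltp (3.62), Cxcr3 (3.24), Cxxc5 (2.97) and Ccr9 (2.86). More negative were Havcr2 (-6.14), Ly6c1 (-5.71), Il1r2 (-5.30), Myo10 (-4.87), Cttn (-3.97), Mpp2 (-2.92), Lgmn (-2.64), Cers6 (-2.60), Tmcc3 (-2.49) and Zdhhc2 (-2.21). Adjusted p-values of these 21 genes lay between 0.000246 and 0.0267. Ly6c2, a surface protein of memory T cells and monocytes, rose from 7.42 to 12.8 CPM to 41.1 to 162 CPM in CD4 cells, whereas CD8 cells had 674 to 1581 CPM in TDLNs and 213 to 920 CPM in TILs. Gm49391 was at 0 in all CD4 TDLN libraries and at 7.58 to 9.41 CPM in CD4 TILs, so its value of 7.37 is not a measured size.

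Tissue effects that differed between WT and Yap-cKO CD4 cells are given as WT minus Yap-cKO on the log2 scale. More positive in WT were Pdgfrb (9.62), Fstl1 (3.82), Tyr (3.77), Mmp14 (3.52), Dct (3.26), Cttn (3.17), App (3.13), Lima1 (3.07), Yap1 (2.81), Myo10 (2.70) and Vegfa (2.40). Pdgfrb was at 0 in all WT TDLN libraries, so its value is not a measured size. More negative were Slc15a3 (-3.38), Havcr2 (-3.19), Ccr8 (-2.97), Klrg1 (-2.78), Arrdc4 (-2.67), Nrn1 (-2.66), Itgae (-2.62), Slc52a3 (-2.56), Tigit (-2.45), Tnfrsf4 (-2.36), Tnfrsf9 (-2.31) and Tnfrsf18 (-2.05). Adjusted p-values of these 23 genes lay between 0.00569 and 0.0495. App, the amyloid precursor gene, was called in opposite directions, with 16 to 29.5 CPM in TDLNs and 77.0 to 151 CPM in TILs of WT mice, against 24.5 to 35.9 and 10.9 to 17.4 CPM in Yap-cKO mice. Melanoma RNA differed between the TILs of the genotypes, and its part was not tested.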

How the results depend on the processing

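Scaling on the T-lineage list moved the WT CD4 count from 5227 to 8072 genes and turned the log2 fold changes of 10 of 146 named genes positive. Of these, 4 were called on 1 of the scales, with T-lineage values of 1.17 for Gata3, 1.47 for Hk1, 0.32 for Ly6c1 and 0.17 for Cers6, and 6 were called on neither (Cd3d, Pecam1, Klf2, Icos, Ccr9 and Nrn1). Of the 146 genes 106 kept their call, or stayed without one, under this scaling, 143 under DESeq2 and 141 without a count filter. The interaction with cell type gave 62 genes, 166 by DESeq2, 96 without a filter, 110 with the replicate block, 14 by T-lineage scaling and 30 to 69 with 1 library left out. The interaction with genotype gave 205, 842 by DESeq2, 386 without a filter, 132 with the replicate block, 1912 by T-lineage scaling and 45 to 900 with 1 library left out, and the Yap-cKO comparison gave 2507 and 1516 to 2436. Leaving out 1 library, the T-lineage ratio was 0.342 to 0.490, the melanoma ratio 624 to 885 and the Foxp3 ratio 2.77 to 3.18, each with an exact p of 0.0571, the smallest that 3 against 4 allow. As replicate pairs the ratios 0.406, 763 and 3.01 had p = 0.125 in an exact sign permutation test, the smallest for 4 pairs. Same-numbered TIL and TDLN libraries correlated at 0.014, 0.436, 0.130 and 0.486, and TIL replicates 1 and 3 correlated best with TDLN replicates 4 and 2, so the numbers were not taken to pair mice. Depth limits values under 0.138 to 0.193 CPM, and with 4 libraries a group the exact permutation tests cannot go below p = 0.0286.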
